A study of Arabidopsis thaliana with 24 samples.

Results

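Transcripts of the plastid genome were followed in Arabidopsis thaliana shoots with and without the chloroplast polynucleotide phosphorylase. They are the 74 probe sets whose ID numbers fall in 2 runs that the array design drew from the plastid genome, out of 22746 probe sets that are not controls. The rule uses ID numbers and no intensity. Of the 74, 71 could be paired with a plastid gene through the annotation of the array's probes and RefSeq gene names, and these stand for 71 of the 78 protein-coding plastid genes in RefSeq. The 6 probe sets for rpl2, rpl23, ycf2, ndhB, rps7 and ycf1 match both copies of a gene in the inverted repeat, the duplicated stretch of the plastid genome, so the copies cannot be told apart. Probe sets 244979_at, 244981_at and 244990_s_at stayed without a gene name. The other 6 probe sets annotated to plastid genes, for rps12, psbA, matK, rps16 and psbK, lie outside the runs and were not analysed here. The build on which the probes were placed is not given in the sources used here, so RefSeq was used for names and for the order of genes, and no coordinates are given.

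The plants were wild type Columbia-0 (WT) and plants of the same accession that carry pnp1-1, the insertion SALK_013306, which is a null allele of the enzyme's gene, so the mutant is 1 line. Seedlings of both were raised at 22 °C, with 16 h of light a day, on complete medium that contained 0.5% sucrose, and at 2 weeks they moved to +P medium (with phosphate) or -P medium (K2SO4 in place of KH2PO4), where they stayed for 3 h or 1 week. The 8 groups hold 3 biological replicates each, 24 arrays in all, and a replicate pools the shoots of 4 or more seedlings after removal of the root. RNA was total RNA, and each array gives 1 intensity per probe set.

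The plastid genome encodes core subunits of the photosynthetic complexes, the large subunit of Rubisco, part of the plastid ribosome and a bacterial-type RNA polymerase. Its genes are mostly transcribed as clusters, and the long transcripts are then cut, spliced and trimmed into many overlapping RNAs. Polynucleotide phosphorylase is a 3′ to 5′ exoribonuclease that uses phosphate to break RNA down and, run in reverse, adds nucleotides to RNA ends. In chloroplasts it is known to trim the 3′ ends of mRNAs and of ribosomal RNA and to take part in adding and removing the poly(A)-rich tails that mark plastid RNAs for decay.

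The labelling kit copies RNA from an oligo(dT) primer, and plastid RNAs carry poly(A)-rich tails mainly as part of their decay. The amount of a plastid RNA and the share of it that carries such a tail cannot be told apart in these intensities, and every level and difference below is of RNA as labelled in this way. In whole shoots, fewer chloroplast-rich cells and less RNA per cell cannot be told apart either. The targeted gene could not be checked, because no probe set of PNP1 is named in the tables used here. Among the markers of green shoot and of root, 1 of 5 and 1 of 6 could be named. The shoot marker RCA, Rubisco activase, lay between 17512 and 36283 on all 24 arrays, and the root marker PRX57, a peroxidase, between 3.60 and 26.7 with a median of 3.985. Neither was called in a comparison of the genotypes. Of 15 listed nuclear genes of organelle RNA metabolism, 2 could be named. They are a mitochondrial polynucleotide phosphorylase, which is not a plastid enzyme, and the RNA polymerase RPOTmp. Neither was called in any comparison.

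The 74 probe sets held between 2.25% and 3.18% of the summed intensity of an array at 3 h and between 1.53% and 2.45% at 1 week. Between 4 and 10 of them lay under an intensity of 16 on an array at 3 h and between 5 and 12 at 1 week. Of all probe sets, 40.3% to 41.5% lay there. Values under 16 have no dependable order after the background correction. The arrays of the 2 times differ in mean intensity (470 to 503 at 3 h, 593 to 612 at 1 week). They also differ in the median of the spike-in control probe sets (6.5 against 97.7). No difference was therefore taken between a level at 3 h and a level at 1 week. Some ranges below pool the arrays of both times and only describe them. Where such ranges of WT and pnp1-1 do not overlap, they do not overlap within either time. Of the 74 members, 4 (rpoB, ycf2, ndhG and ndhF) had all 8 group means under 16, and 12 had at least 1.

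The first comparison was pnp1-1 with WT, in each of the 4 combinations of medium and time. Plastid transcripts moved in both directions in the mutant: those of rpl20, psbD and rbcL rose by 3.80 to 5.23 on the log2 scale in every condition, and those of petD, in the background range in WT, by 3.23 to 5.46 with intensities under 16 set to 16. Transcripts of atpA and of the neighbouring genes psbE, psbF, psbL and psbJ fell by 0.76 to 2.59. A probe set was called when limma's adjusted p, adjusted over all 22746 probe sets by the method of Benjamini and Hochberg, was under 0.05. At 3 h on +P, 13 members rose and 11 fell, against 7.41% of all probe sets called (4.09% higher and 3.32% lower). At 3 h on -P, 14 rose and 7 fell, against 4.26% of all (2.51% and 1.74%). At 1 week on +P, 13 rose and 13 fell, against 7.35% of all (3.33% and 4.01%). At 1 week on -P, 16 rose and 6 fell, against 1.64% of all (1.1% and 0.545%). Members were thus called at 28.4% to 35.1% in each condition. Counted instead by groups that do not overlap, 15 members were higher and 25 lower at 3 h on +P (9.79% and 10.7% of all probe sets), and 17 and 13 at 3 h on -P (11.3% and 9.26%). At 1 week, 25 were higher and 23 lower on +P (12.1% and 12.9%), and 31 and 9 on -P (6.96% and 5.46%). In the fit with the replicate number as a block, used on -P, where same-numbered arrays deviated together, 7 members were called at 3 h (petD, rbcL, psbD, psbC, psbZ, atpA and psbN) and 3 at 1 week (petD, rbcL and rps14), against 0.637% and 0.0352% of all probe sets in the same fits.

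Differences of both signs left the median of the list near 0 in 3 conditions and above it at 1 week on -P. The median log2 difference of the 74 members was -0.12 at 3 h on +P, -0.0026 at 3 h on -P, -0.081 at 1 week on +P and 0.37 at 1 week on -P, beside -0.024, -0.0012, 0.047 and 0.012 over all probe sets. The median size of the difference, without its sign, was 0.58, 0.65, 0.60 and 0.67 for the members and 0.17, 0.14, 0.20 and 0.13 for all probe sets. At 1 week on -P, 53 of the 74 members had a positive difference, against 59.1% of all probe sets. The members' percentage of the summed intensity was 2.55 ± 0.22 (SD, n = 3) in WT and 2.83 ± 0.19 in pnp1-1 at 3 h on +P, and 2.17 ± 0.05 and 2.35 ± 0.10 at 1 week on +P. The gap was widest at 1 week on -P, where the percentage was 1.73 ± 0.18 in WT and 2.33 ± 0.02 in pnp1-1.

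Over the 4 conditions, 12 members were higher in pnp1-1 in every one (0.242% of all probe sets) and 6 lower in every one (0.127%). The 12 are petD, rpl20, psbD, rbcL, ndhB, psbC, petG, psbZ, rps18, petN, rpl33 and rpl22, and the 6 are atpA, psbE, psbL, psbJ, psbF and rpl23. In all, 32 of the 74 were called in at least 1 condition (14.3% of all probe sets), and 42 in none. No member was called higher in 1 condition and lower in another (0.0572% of all). With only the compared groups in each fit, 3 members (rbcL, psbC and psbZ) were higher in all 4 conditions and 0 lower. Those fits called 0.708%, 1.85%, 4.55% and 0.229% of all probe sets in the 4 conditions. Without the 3 arrays at 1 week whose lower quartile of intensity was above 6, 9 members were higher and 3 lower. The shares of all called were then 6.7%, 4.04%, 3.27% and 1.45%. With intensities under 16 set to 16, 10 members were higher and 5 lower, without ndhB, rpl22 and atpA. The shares of all were 6%, 3.28%, 6.01% and 1.33%. The shares given for these alternatives are of probe sets called in each condition by itself. They are not shares called in all 4, as 0.242% and 0.127% are, so the counts cannot be set against them directly.

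**Figure D1:**
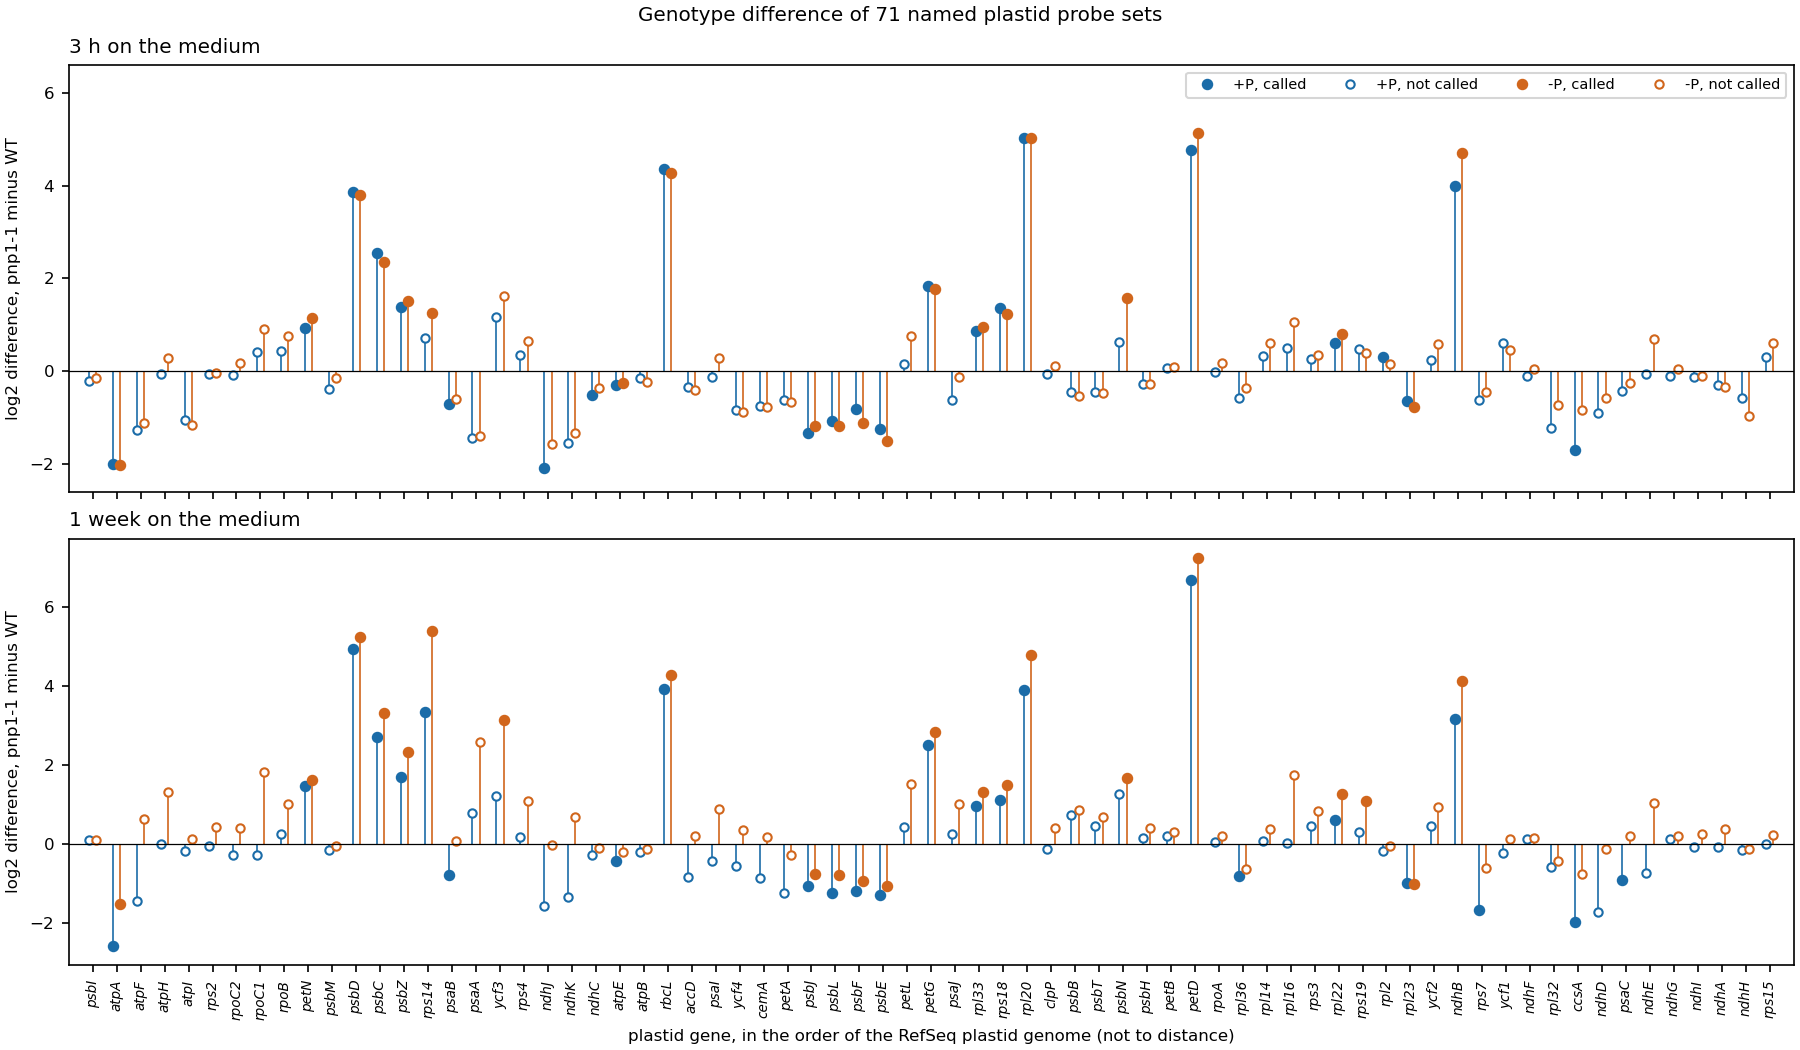
Log2 difference between pnp1-1 and WT (vertical axis) for the 71 named plastid probe sets in the order of their genes (horizontal axis), at 3 h above and 1 week below, on +P in blue and on -P in orange. Filled points were called by limma. Rises of over 3 stand at single genes or short runs (psbD, rbcL, rpl20, petD and ndhB in every condition, rps14 at 1 week, and psbC and ycf3 at 1 week on -P), while many of the genes between them lie near 0.

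Among the genes of the cytochrome b6f complex, which passes electrons between the photosystems, petD had a mean difference of 5.96 over the 4 conditions, or 4.23 with values under 16 set to 16. petD (244977_at) encodes subunit IV of the complex. At 3 h its intensity was 4.8, 4.8 and 7.3 in WT on +P, 4.7, 4.8 and 4.8 in WT on -P, 185, 262 and 69.2 in pnp1-1 on +P and 125, 218 and 173 in pnp1-1 on -P. At 1 week it was 4.41, 4.49 and 4.42 in WT on +P, 4.64, 4.85 and 4.48 in WT on -P, 439, 486 and 445 in pnp1-1 on +P and 619, 768 and 732 in pnp1-1 on -P. All 12 WT arrays lay at 7.3 or below, in the background range, and all 12 pnp1-1 arrays at 69.2 or above. The log2 differences were 4.76 ± 0.32 (SE, adjusted p = 5.44e-07) at 3 h on +P, 5.14 ± 0.32 (7.94e-08) at 3 h on -P, 6.68 ± 0.32 (2.02e-09) at 1 week on +P and 7.24 ± 0.32 (2.63e-10) at 1 week on -P. Because WT lay in the background range, the size rests on the background correction: with values under 16 set to 16 the differences were 3.23, 3.39, 4.83 and 5.46, and all 4 were still called.

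The gene next to petD was not called in any condition. petB (244976_at), which encodes cytochrome b6 and is transcribed in the same cluster, lay between 9576 and 13665 on the WT arrays and between 10756 and 17154 on the pnp1-1 arrays. Its differences, 0.06, 0.09, 0.19 and 0.28 (SE 0.10), were near 0. The genes upstream in the cluster, psbB, psbT and psbH of photosystem II, had differences between -0.55 and 0.84, none of them called. Of the other b6f genes, petG and petN, small subunits, rose in all 4 conditions. The petG (244966_at) intensities ran from 67.6 to 215 in WT and from 388 to 559 in pnp1-1 at 3 h, and from 51.2 to 148 and from 374 to 713 at 1 week, without overlap at either time. Its differences were 1.84, 1.78, 2.49 and 2.84 (SE 0.37), and those of petN (245000_at) were 0.93, 1.14, 1.46 and 1.61 (SE 0.22). petL and petA, which encode a small subunit and cytochrome f, were not called, with differences from 0.14 to 1.51 and from -1.25 to -0.28. So 3 of the 6 measured b6f members rose in each condition and 0 fell, against 1.1% to 4.09% of all probe sets higher and 0.545% to 4.01% lower.

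The large subunit of Rubisco, the enzyme that fixes carbon dioxide, is encoded by rbcL (245015_at), which is transcribed from a promoter of its own. At 3 h its intensity was 1025, 708 and 1049 in WT on +P, 883, 1232 and 759 in WT on -P, 17971, 17613 and 21043 in pnp1-1 on +P and 13827, 21913 and 19581 in pnp1-1 on -P. At 1 week it was 1007, 741 and 941 in WT on +P, 488, 723 and 1106 in WT on -P, 8889.6, 12266 and 22189 in pnp1-1 on +P and 11503, 12120.0 and 20112 in pnp1-1 on -P. The lowest pnp1-1 array stood at 8889.6 and the highest WT array at 1232. The log2 differences were 4.36 ± 0.33 (adjusted p = 1.78e-06), 4.27 ± 0.33 (1.40e-06), 3.92 ± 0.33 (1.97e-06) and 4.27 ± 0.33 (4.68e-07) in the order used above, or 20.6, 19.3, 15.1 and 19.3-fold. They lie well above the background range on all arrays, so the floor at 16 left them as they were. The neighbours of rbcL, atpB on one side and accD on the other, were not called in any condition.

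Photosystem II splits water and starts electron transport, and its 13 measured members divided by gene cluster. The cluster of psbD, psbC and psbZ, which encode the reaction centre protein D2, the antenna protein CP43 and a small subunit, rose in all 4 conditions. At 3 h the psbD (245002_at) intensity was 990.4, 1277 and 458 in WT on +P, 1008, 1139 and 459 in WT on -P, 17619, 12721 and 8146 in pnp1-1 on +P and 18505, 12007 and 6435 in pnp1-1 on -P. At 1 week it was 859, 743 and 373 in WT on +P, 396, 236 and 698 in WT on -P, 19713, 19794 and 17649 in pnp1-1 on +P and 18229, 13682 and 13896 in pnp1-1 on -P. The lowest pnp1-1 array lay above the highest WT array of either time, and replicate 3 was the lowest of its group in all 4 groups at 3 h. The differences of psbD were 3.87 ± 0.49 (adjusted p = 0.000168), 3.80 ± 0.49 (0.000239), 4.94 ± 0.49 (1.16e-05) and 5.23 ± 0.49 (5.38e-06).

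The log2 difference was smaller for psbC than for psbD in each condition, and smaller still for psbZ. For psbC (245003_at), the differences were 2.54, 2.35, 2.70 and 3.32 (SE 0.22), with 1569.8 to 4649 over the WT arrays and 16100 to 24657 over those of pnp1-1. For psbZ (245004_at), they were 1.38, 1.52, 1.70 and 2.33 (SE 0.15), with 3183 to 7909 and 16909 to 22775. Neither gene's WT and pnp1-1 arrays overlapped, and whether intensities as high as those of pnp1-1 still rise in proportion to RNA was not tested.

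The cluster of psbE, psbF, psbL and psbJ moved the other way, and its 4 genes were the only members of photosystem II that fell. psbE (244964_at) and psbF encode the subunits of cytochrome b559, and psbL and psbJ encode small subunits. At 3 h the psbE intensity was 4196, 5183 and 5257 in WT on +P, 4577, 6015 and 4626 in WT on -P, 2436, 1606 and 2179 in pnp1-1 on +P and 2264, 1419 and 1705 in pnp1-1 on -P. At 1 week it was 4363, 5353 and 3904 in WT on +P, 4577, 4588 and 5199 in WT on -P, 1710.1, 1723 and 2049 in pnp1-1 on +P and 2364, 2082 and 2344 in pnp1-1 on -P. The lowest WT array read 3904 and the highest pnp1-1 array 2436. The psbE differences were -1.25 ± 0.18 (adjusted p = 0.000497), -1.51 ± 0.18 (0.000108), -1.31 ± 0.18 (0.000274) and -1.08 ± 0.18 (0.00244), so WT had 2.38, 2.85, 2.47 and 2.12 times the intensity of pnp1-1.

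The other 3 genes of that cluster gave values of like size. The psbF (244963_at) intensities were 8553 to 10955 over the 12 WT arrays and 3489.9 to 5664 over the 12 of pnp1-1, with differences of -0.82, -1.12, -1.19 and -0.94 (SE 0.11). For psbL (245022_at) they were 900.4 to 1877 and 485 to 835, with differences of -1.08, -1.18, -1.24 and -0.80 (SE 0.16). For psbJ (245021_at) they were 4254 to 6557 and 1946 to 2824, with differences of -1.34, -1.18, -1.08 and -0.76 (SE 0.15). For each of these genes the 12 WT arrays and the 12 pnp1-1 arrays did not overlap. Transcription of these genes is known to run as 1 unit, so their probe sets are not separate pieces of evidence. In the blocked fit at 3 h on -P the 4 genes were not called, with adjusted p from 0.0698 to 0.118. They were not called in the blocked fit at 1 week on -P either.

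**Figure D2:**
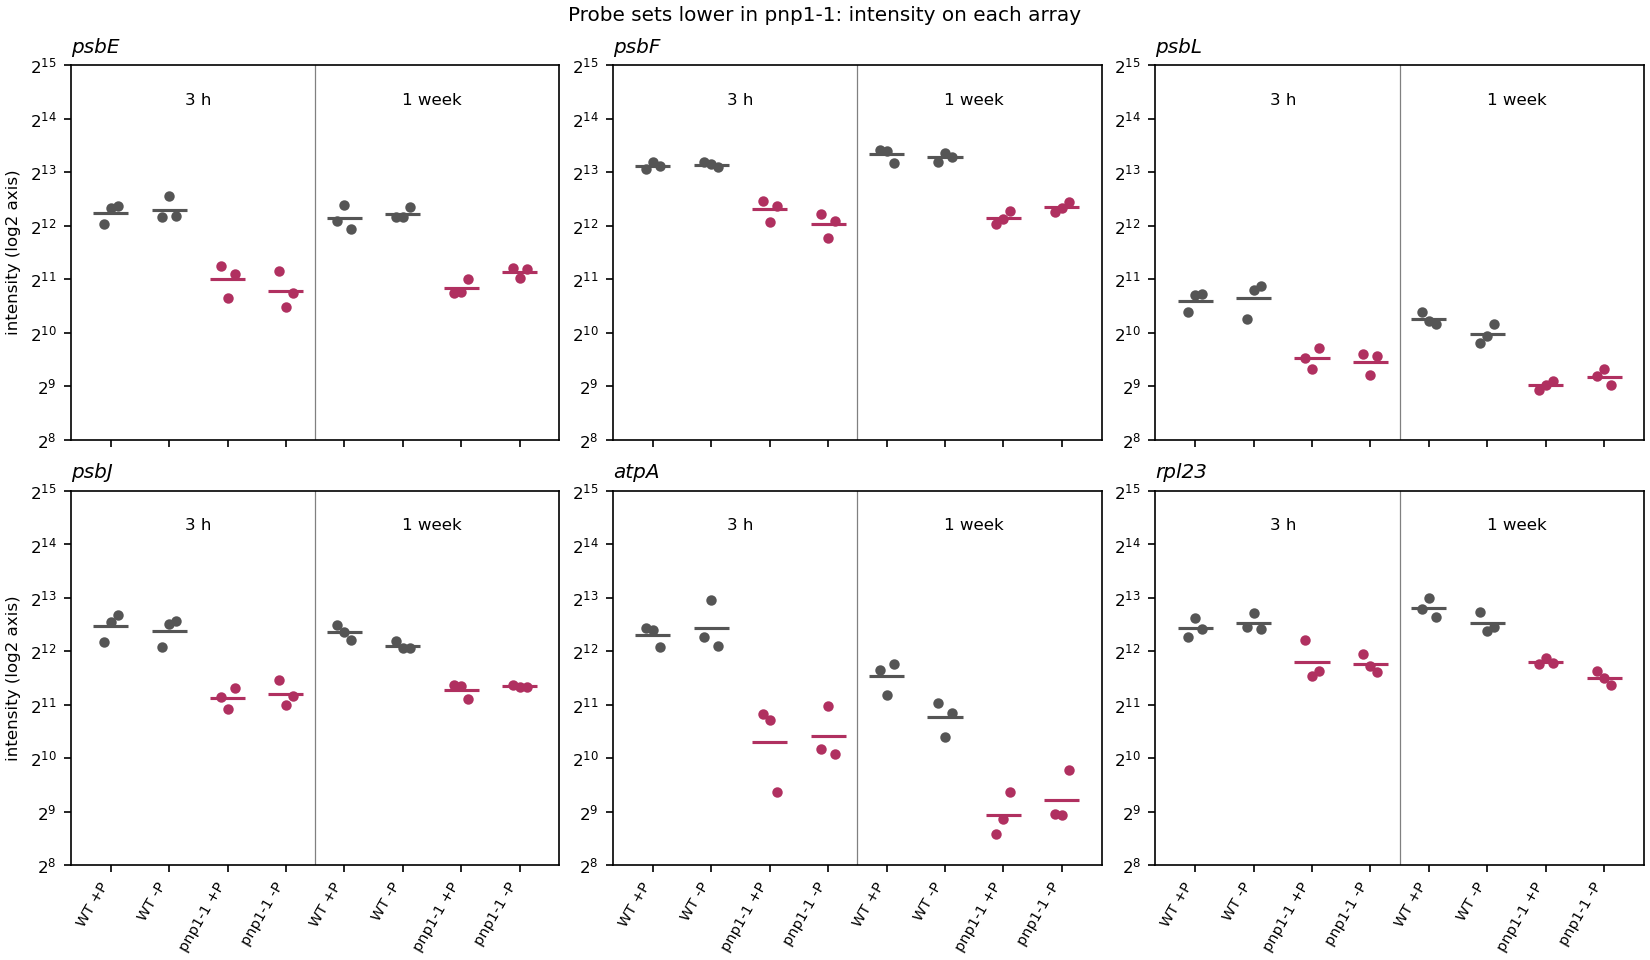
Intensity on each array (points; log2 axis) and the back-transformed mean of each group (bars) for 6 probe sets called lower in pnp1-1 in all 4 conditions, in the 8 groups along the horizontal axis, WT in grey and pnp1-1 in red. For psbE, psbF, psbL and psbJ no red point reaches a grey one at the same time.

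Of the remaining photosystem II members, psbN (244974_at), which encodes an assembly factor and lies on the strand opposite psbT and psbH, rose on -P at both times, by 1.58 ± 0.39 (adjusted p = 0.0287) and 1.66 ± 0.39 (0.0389). Its values on +P were 0.62 and 1.26, not called. The call at 1 week was lost in 12 of 15 alternatives. psbB, psbH, psbT, psbI and psbM, which encode the antenna protein CP47 and small subunits, were not called in any condition.

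The ATP synthase turns the proton gradient into ATP. Its member atpA (245024_at), the alpha subunit, fell in all 4 conditions. At 3 h its intensity was 5514, 5385 and 4342 in WT on +P, 4961, 7982 and 4369.5 in WT on -P, 1813, 1683 and 662 in pnp1-1 on +P and 1155, 2013 and 1083 in pnp1-1 on -P. At 1 week it was 3226, 2325 and 3473 in WT on +P, 2107, 1351 and 1847 in WT on -P, 385, 467 and 663 in pnp1-1 on +P and 495, 491 and 878 in pnp1-1 on -P. The groups did not overlap in any condition, and replicate 3 of pnp1-1 at 3 h on +P stood lowest at that time. The differences were -2.00 ± 0.37 (adjusted p = 0.00308), -2.03 ± 0.37 (0.00392), -2.59 ± 0.37 (0.000403) and -1.54 ± 0.37 (0.0394), and the last call was lost in 8 of 15 alternatives. Of the genes transcribed with atpA, those of the membrane subunits, atpF, atpH and atpI, were not called, with differences from -1.44 to 1.32. atpE (245013_at), the epsilon subunit, was called lower in 3 conditions by small amounts, -0.30 ± 0.06 and -0.26 ± 0.06 at 3 h and -0.44 ± 0.06 at 1 week on +P. atpB, the beta subunit, was not called. So 2 of 6 members fell in each condition except at 1 week on -P, where 1 fell, and 0 rose. Over all probe sets, 0.545% to 4.01% were called lower and 1.1% to 4.09% higher.

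The NDH complex drives cyclic electron flow around photosystem I. Of its 11 measured members, 1 rose in every condition, against 0.242% of all probe sets. ndhB (244991_s_at) encodes a membrane subunit. At 3 h its intensity was 3.8, 4.0 and 5.4 in WT on +P, 3.8, 3.9 and 4.3 in WT on -P, 80.3, 159 and 26.5 in pnp1-1 on +P and 110.4, 164 and 63.3 in pnp1-1 on -P. At 1 week it was 3.63, 3.57 and 3.57 in WT on +P, 3.73, 3.52 and 3.57 in WT on -P, 37.8, 20.1 and 44.9 in pnp1-1 on +P and 56.5, 48.7 and 91.8 in pnp1-1 on -P. Like petD, ndhB lay in the background range on all 12 WT arrays (at most 5.4) and above it on all 12 pnp1-1 arrays (at least 20.1). The differences were 4.00 ± 0.47, 4.71 ± 0.47, 3.17 ± 0.47 and 4.13 ± 0.47 (adjusted p from 1.67e-05 to 0.000629). With values under 16 set to 16 they were 2.12, 2.71, 1.02 and 1.98, and the calls at 1 week were lost (adjusted p = 0.273 and 0.0516).

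rps7 (244992_s_at), which lies beside ndhB in the inverted repeat and encodes a protein of the small ribosomal subunit, did not rise with it: its differences were -0.63, -0.44, -1.68 and -0.61 (SE 0.29), with a call, lower, at 1 week on +P (adjusted p = 0.00212). Another NDH cluster, ndhC, ndhK and ndhJ, had negative values on +P at both times and at 3 h on -P. ndhJ (245010_at), a peripheral subunit, fell by 2.09 ± 0.51 at 3 h on +P (adjusted p = 0.0174), from 670.1, 433 and 637 on the WT arrays to 208, 185 and 62.2 in pnp1-1. ndhC fell there by 0.51 ± 0.15 (adjusted p = 0.0446), a call lost in 10 of 15 alternatives. ndhJ at the other conditions gave -1.57, -1.58 and -0.02, not called. ndhD (244962_at), another membrane subunit, gave -1.74 ± 0.59 at 1 week on +P, not called (adjusted p = 0.0872), with WT arrays at 950.1, 384 and 831 and pnp1-1 arrays at 132, 159 and 389.8. The other 7 NDH members were not called, and among them ndhG and ndhF had all 8 group means under 16.

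**Figure D3:**
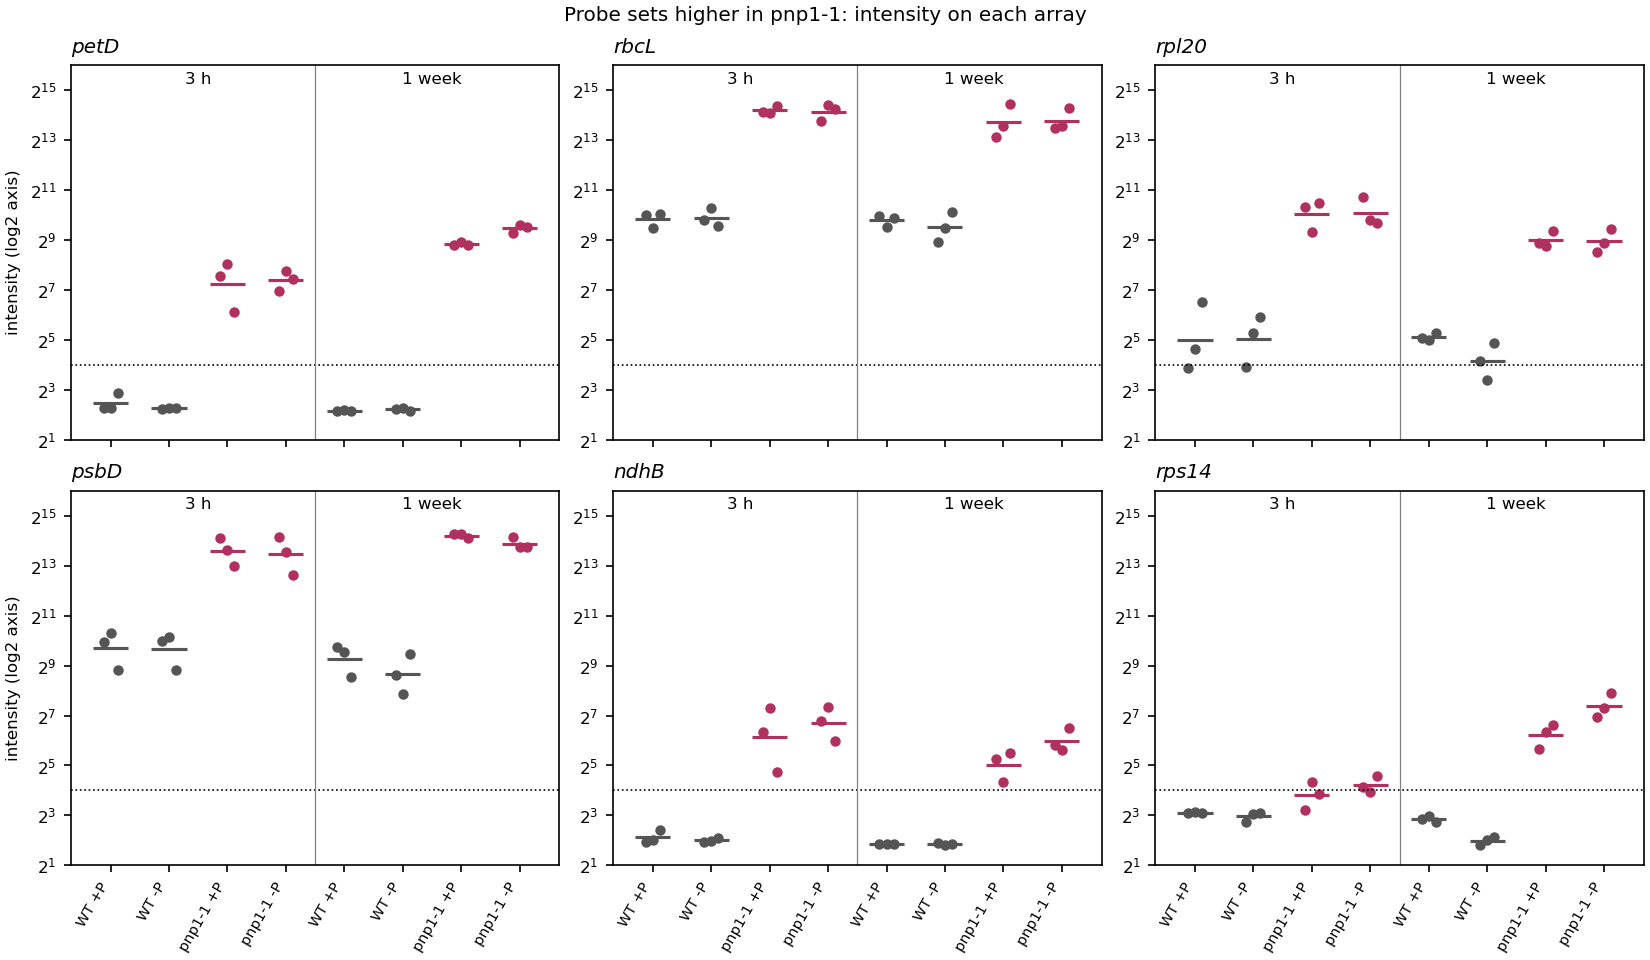
Intensity on each array (points; log2 axis) and the back-transformed mean of each group (bars) for 6 probe sets called higher in pnp1-1 in at least 3 conditions, in the 8 groups along the horizontal axis, WT in grey and pnp1-1 in red. The dotted line marks an intensity of 16, and petD, ndhB and rps14 lie under it on every WT array.

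Photosystem I passes electrons on to ferredoxin, and its members were mostly not called. psaB (245006_at), a reaction centre protein, fell on +P, by 0.72 ± 0.20 at 3 h (adjusted p = 0.0405) and 0.79 ± 0.20 at 1 week (0.0243), calls that were lost in 10 and 9 of 15 alternatives. psaA, its partner and neighbour, gave -1.43, -1.40, 0.78 and 2.58 (SE 0.84) and was not called. Its pnp1-1 arrays at 3 h on +P read 1116, 602 and 51.8, the widest spread on the log2 scale within a group of any member. psaC, which carries iron-sulfur clusters, fell at 1 week on +P by 0.93 ± 0.21 (adjusted p = 0.0118), with all 3 pnp1-1 arrays under 16 and a fall by 0.61 with values under 16 set to 16. ycf3 (245008_at), an assembly factor, rose at 1 week on -P by 3.14 ± 0.50 (adjusted p = 0.00213), with WT arrays at 93.1, 45.05 and 153 and pnp1-1 arrays at 751, 552 and 1052. psaI, psaJ and the assembly factor ycf4 were not called.

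rps14 follows psaA and psaB in their cluster and encodes a protein of the small ribosomal subunit. In the fit of all 24 arrays it was the only member called for a genotype difference that depended on time. At 3 h the rps14 (245005_at) intensity was 8.5, 8.8 and 8.5 in WT on +P, 6.7, 8.4 and 8.5 in WT on -P, 9.4, 20.3 and 14.6 in pnp1-1 on +P and 17.7, 15.5 and 24.1 in pnp1-1 on -P. At 1 week it was 7.21, 7.96 and 6.71 in WT on +P, 3.49, 4.09 and 4.37 in WT on -P, 50.5, 82.2 and 98.6 in pnp1-1 on +P and 124, 159 and 241 in pnp1-1 on -P. WT stayed at 8.8 or below on all 12 arrays, while pnp1-1 stood between 9.4 and 24.1 at 3 h and between 50.5 and 241 at 1 week. The differences were 0.71 ± 0.28 (not called, adjusted p = 0.141), 1.26 ± 0.28 (0.0143), 3.35 ± 0.28 (1.63e-06) and 5.40 ± 0.28 (2.09e-09). With values under 16 set to 16, those called became 0.25 (no longer called), 2.21 and 3.39.

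Among the proteins of the plastid ribosome, rpl20 (244970_at), of the large subunit, had the highest mean difference over the 4 conditions, 4.69. At 3 h its intensity was 14.4, 24.6 and 92.1 in WT on +P, 15.1, 39.0 and 60.7 in WT on -P, 1278, 641 and 1418 in pnp1-1 on +P and 1707, 894 and 819 in pnp1-1 on -P. At 1 week it was 33.5, 31.6 and 38.3 in WT on +P, 17.8, 10.6 and 29.5 in WT on -P, 475, 429.8 and 648 in pnp1-1 on +P and 365, 466 and 698 in pnp1-1 on -P. The lowest pnp1-1 array (365) lay above the highest WT array (92.1), and WT spread from 14.4 to 92.1 among the replicates at 3 h on +P. The differences were 5.04 ± 0.59 (adjusted p = 0.000101), 5.03 ± 0.59 (0.000108), 3.89 ± 0.59 (0.000804) and 4.79 ± 0.59 (0.000156). In the blocked fits on -P its adjusted p was 0.0843 at 3 h and 0.0647 at 1 week.

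Smaller rises were shared by rpl33 (244968_at), rps18 (244969_at) and rpl22 (244985_at), proteins of the large, small and large subunit. The rpl33 differences were 0.86, 0.95, 0.95 and 1.32 (SE 0.20), those of rps18 were 1.36, 1.23, 1.11 and 1.5 (SE 0.30) and those of rpl22 were 0.61, 0.80, 0.60 and 1.26 (SE 0.18). rpl33 and rps18 are neighbours transcribed together, with rpl20 on the opposite strand beside them. The rpl22 calls on +P had adjusted p of 0.0477 and 0.0499 and were each lost in 12 of 15 alternatives.

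rpl23 (244988_s_at), the first gene of the large ribosomal protein cluster that also holds rpl22, fell in all 4 conditions instead. Its intensities were 4939.7 to 8166 over the WT arrays and 2657 to 4762 over those of pnp1-1, and the groups did not overlap within any condition. The differences were -0.64 ± 0.16 (adjusted p = 0.0189), -0.77 ± 0.16 (0.00936), -1.0 ± 0.16 (0.000969) and -1.02 ± 0.16 (0.00154). Its neighbour rpl2 gave 0.30, 0.15, -0.19 and -0.05 (SE 0.09), with a call, higher, at 3 h on +P that was lost in 12 of 15 alternatives. Further along the cluster rps19 rose at 1 week on -P by 1.08 ± 0.25 (adjusted p = 0.0348), rpl36 fell at 1 week on +P by 0.83 ± 0.19 (0.0115), and rps3, rpl16, rpl14 and rpoA were not called. Of the 17 ribosomal protein members, 5, 5, 5 and 6 rose in the 4 conditions and 1, 1, 3 and 1 fell. Of all probe sets, 4.09%, 2.51%, 3.33% and 1.1% were called higher and 3.32%, 1.74%, 4.01% and 0.545% lower.

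Of the other members, ccsA (244961_at), needed for attaching haem to c-type cytochromes, fell on +P, by 1.70 ± 0.41 at 3 h (adjusted p = 0.0166) and 1.99 ± 0.41 at 1 week (0.00676). Its arrays at 1 week on +P read 4339, 3351 and 4595 in WT and 689, 1084 and 1420.2 in pnp1-1. On -P its values were -0.84 and -0.77, not called. The 4 subunits of the plastid RNA polymerase, rpoA, rpoB, rpoC1 and rpoC2, were not called in any condition, with differences from -0.29 to 1.81. For rpoB all 8 group means lay under 16, so its lack of a call says little. accD, of acetyl-CoA carboxylase, clpP, a protease subunit, cemA, an envelope protein, and ycf1 and ycf2 were not called either. The same limit holds for ycf2, with all 8 group means under 16. The unnamed probe set 244979_at fell at 1 week on +P by 0.70 ± 0.12 (adjusted p = 0.00162).

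**Figure D4:**
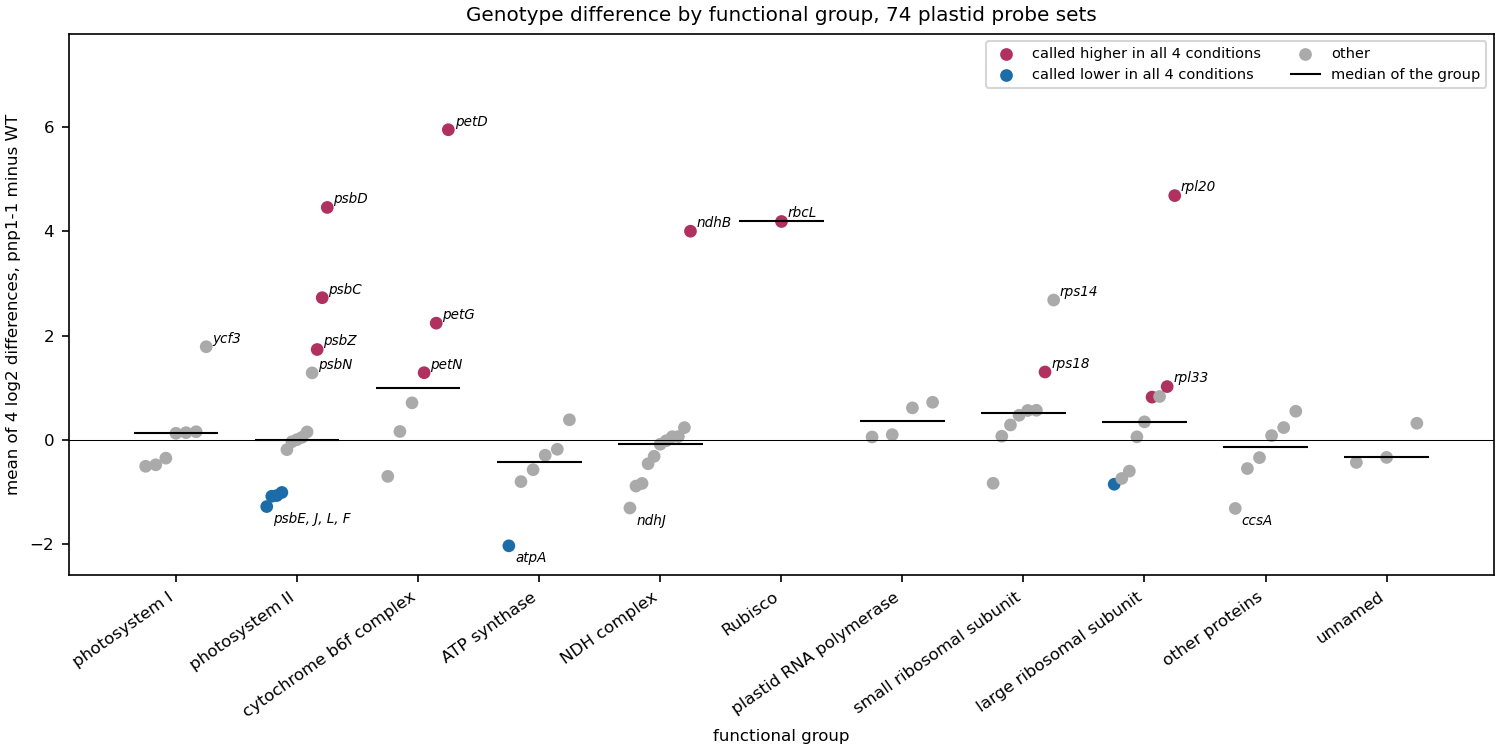
Mean of the 4 log2 differences between pnp1-1 and WT (vertical axis) of each of the 74 plastid probe sets, by functional group (horizontal axis), with the median of the group as a bar. Red points were called higher and blue points lower in all 4 conditions, and most groups hold members near 0 beside them.

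The medians of the functional groups, taken over the mean of the 4 differences, were 1.00 for the 6 b6f members, 0.51 for the 8 of the small and 0.34 for the 9 of the large ribosomal subunit, 0.35 for the 4 of the RNA polymerase, 0.12 for the 7 of photosystem I, -6.2e-05 for the 13 of photosystem II, -0.089 for the 11 of NDH and -0.44 for the 6 of ATP synthase. The RNA polymerase median includes rpoB, whose group means all lay under 16. Within photosystem II the mean differences ran from -1.29 for psbE to 4.46 for psbD, and within NDH from -1.31 for ndhJ to 4.00 for ndhB, or 1.96 for ndhB with values under 16 set to 16. Of all 74, 25 members were above 0 and 20 below 0 in all 4 conditions, a shared sign in 45 of 74 against 31% of all probe sets. The mean difference was over 1 for 14 members, under -1 for 7 and within 0.5 of 0 for 34.

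The second comparison was -P with +P within each genotype, which asks how withdrawing phosphate moved plastid transcripts. At 3 h no member was called by limma in either genotype, and 0 and 2 members reached an unadjusted p under 0.05 in WT and pnp1-1, beside 3.59% and 1.24% of all probe sets. In WT, 45 of 74 differences were positive (36.8% of all probe sets), with a median of 0.029 beside -0.023. In pnp1-1, 60 of 74 were positive (44.2% of all), with a median of 0.16 beside -0.00080. The largest differences in WT were 0.40 ± 0.43 for ycf4 and -0.29 ± 0.59 for ndhD. In pnp1-1 they were 0.88 ± 0.39 for psbN and -0.28 ± 0.11 for psbF. At this time 0% of all probe sets were called in WT and 0.00879% in pnp1-1.

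After 1 week, most members had negative differences between -P and +P in WT, 3 of them called, and in pnp1-1 none was called. In WT, 64 of the 74 members had a negative difference, against 43.4% of all probe sets, with a median of -0.44 beside 0.018. For 37 members the 3 WT arrays on -P lay below the 3 on +P (10.2% of all probe sets). Of these, 3 were called, which is 4.05% of the members, near the 3.43% of all probe sets called in this comparison (1.57% lower). In all, 28 members had an unadjusted p under 0.05 (15.6%). The called members were psbZ, psaC and ndhI, an iron-sulfur subunit of NDH. The psbZ arrays read 7494, 6424 and 5455 on +P and 4026, 3183 and 4087 on -P, a difference of -0.78 ± 0.15 (adjusted p = 0.00859). The psaC arrays read 34.3, 21.2 and 19.96 and 13.1, 11.02 and 13.3, a difference of -0.97 ± 0.21 (0.0154) that ended under 16. The ndhI arrays read 10026, 9819 and 10873 and 8108, 6428 and 8025, a difference of -0.45 ± 0.11 (0.0328). With the compared groups alone none of these 3 was called (adjusted p = 0.112, 0.145 and 0.169). The 1 member called there was rps14 (1.31% of all probe sets were). Its arrays, at 7.21, 7.96 and 6.71 on +P and 3.49, 4.09 and 4.37 on -P, all lay under 16, in the background range. The ndhI call was lost in 9 of 15 alternatives, and the psaC difference was -0.61 with values under 16 set to 16. The count was 1 (psbZ) without WT replicate 2 on -P, 6 without replicate 3, and 1 (psaC) when each array was centred on its median. Of the 22746 probe sets, those fits called 584, 476 and 645. With median centring the share was 1.35% of the members, below the 2.84% of all. The root marker PRX57, the 1 of 6 that could be named, read 26.7, 10.35 and 4.46 on these WT arrays on -P and 4.43, 4.35 and 4.46 on +P. The same -P arrays enter the genotype difference at 1 week on -P, where PRX57 gave -1.18 ± 0.36. They also enter the interaction of genotype and medium at 1 week, where it gave -1.29 ± 0.52. Neither value was called by limma, and the marker's part in these results was not tested.

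In pnp1-1 at 1 week, 46 members had a positive difference between -P and +P, against 35.8% of all probe sets, and 28 a negative one, with a median of 0.058 beside -0.023 over all probe sets. No member was called by limma, against 0.941% of all probe sets, and 3 had an unadjusted p under 0.05 (5.53%). The arrays on -P lay above those on +P for 7 members and below them for 2 (4.93% and 4.37% of all). The largest difference was 1.18 ± 0.28 for rps14 (adjusted p = 0.0524), with arrays at 50.5, 82.2 and 98.6 on +P and 124, 159 and 241 on -P. On the other side psaJ gave -0.34 ± 0.46. In all, 36 members were lower on -P in WT and higher in pnp1-1, 28 were lower in both and 10 higher in both.

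The difference between these 2 responses was itself tested, as the interaction of genotype and medium, which uses the same arrays. At 1 week no member was called by limma (0.0791% of all probe sets were), while 72 of the 74 members had a positive interaction, against 42.6% of all probe sets, with a median of 0.46 beside -0.032. For 17 members the unadjusted p was under 0.05 (5.21% of all). The highest value was 2.09 ± 1.07 for rpoC1 (244998_at), a subunit of the RNA polymerase (adjusted p = 0.941). Its WT arrays read 747, 664 and 856 on +P and 72.8, 90.04 and 701 on -P, so that replicate 3 on -P stood with the +P arrays, and its pnp1-1 arrays read 442, 512 and 1057 and 382, 391 and 1326. The lowest value, -0.18 ± 0.46 for 244990_s_at, was within its error. At 3 h no member was called by limma (0% of all), and 0 had an unadjusted p under 0.05 (3.01%), with the extremes 0.96 ± 0.56 for psbN and -0.38 ± 0.60 for ndhH.

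**Figure D5:**
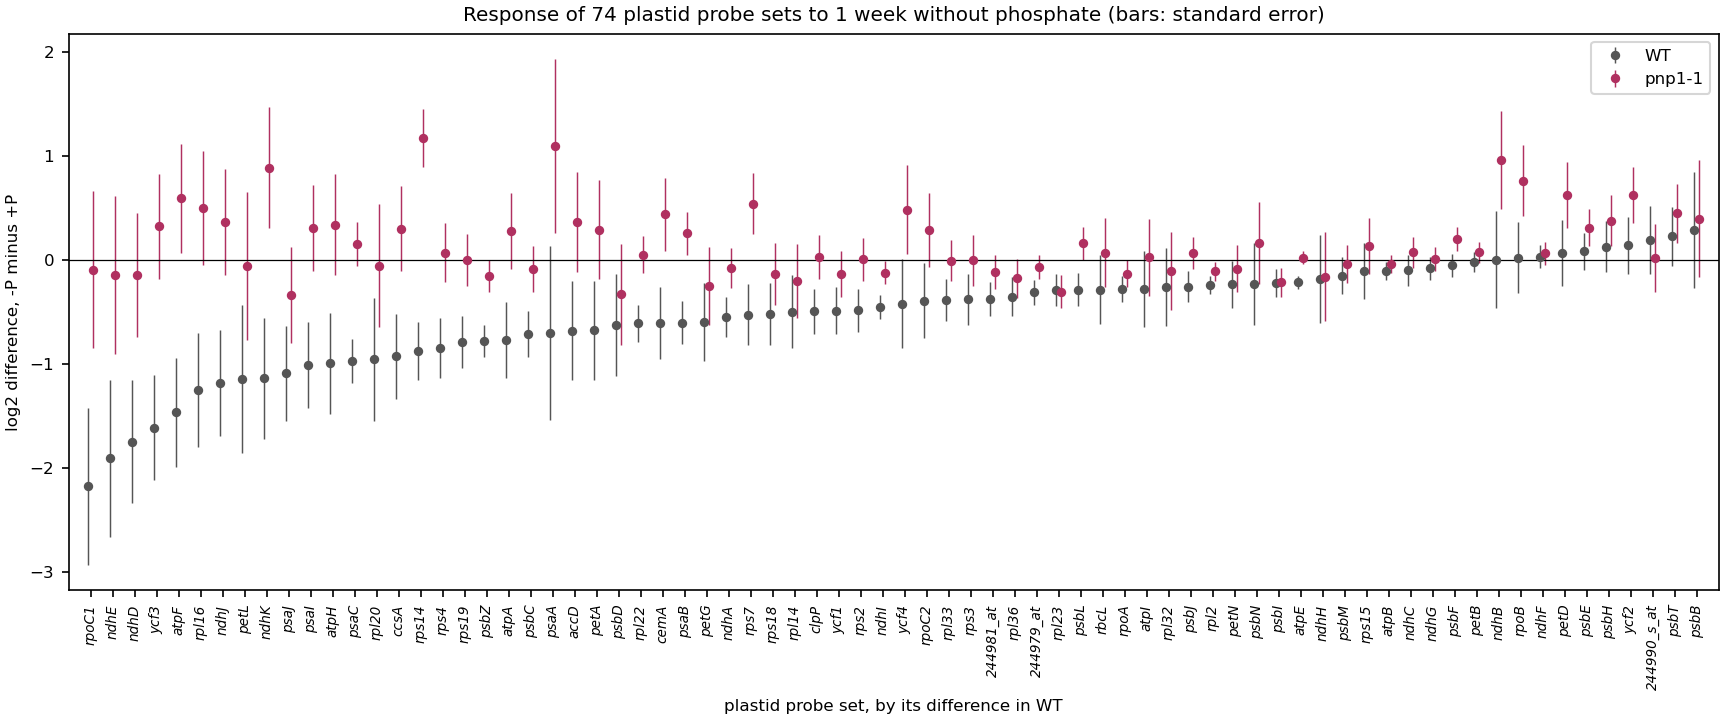
Log2 difference between -P and +P after 1 week (vertical axis; bars are standard errors) for the 74 plastid probe sets in order of their difference in WT (horizontal axis), WT in grey and pnp1-1 in red. Most grey points lie below 0, and the red points lie around 0 along the whole row.

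The third comparison was of the genotype difference at 1 week with that at 3 h, an interaction that uses only differences taken within a time. On both media 1 member was called, rps14, beside 0.136% of all probe sets on +P and 0.308% on -P. Its difference grew by 2.64 ± 0.39 on +P (adjusted p = 0.00723) and by 4.14 ± 0.39 on -P (1.96e-05). With values under 16 set to 16 the 2 values were 2.10 and 3.15, both still called. With the compared groups alone the value on +P was not called (adjusted p = 0.0686). On -P, petD had an interaction of 2.10, not called in the fit of all arrays. It was called beside rps14 with the compared groups alone, with and without a replicate block, and with dim probe sets filtered out. Its WT arrays lay in the background range. The psaA interaction on -P was 3.98, not called. The median interaction of the members was 0.010 on +P, beside 0.060 over all probe sets, and 0.43 on -P, beside 0.015.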

How the data were processed

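Single-colour, biotin-labelled arrays measured total RNA of shoots. The authors deposited 1 table of probe set intensities, written with 1 decimal at 3 h and 2 at 1 week. GCRMA, affy and limma are named, without versions or steps, per the submitters' processing notes. The scale is linear, as values reach 36283 (RCA), far above the range of log2 intensities. The files' values were used as they are, and log2 was taken here. The 64 control probe sets were left out. Each of the 24 columns belonged to a labelled sample.

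For all 24 arrays together, group means were estimated with limma 3.58.1 (lmFit and eBayes) in R 4.3.3, over 22746 probe sets, with 16 residual and 1.40 prior degrees of freedom. A call is an adjusted p under 0.05. Errors of differences are standard errors of that fit. The number of arrays limits the precision. The fit was tested on simulated data. The planned check of PNP1 was not possible.

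The members and gene lists were chosen with earlier results of these data known, and the gene clusters described after the values were seen. Members named with values were the 3 highest and 3 lowest in each genotype comparison and in their mean, those called or else most extreme in the other comparisons, and the highest and lowest of each functional group, 30 in all. Other members were named after their values were seen.

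Replicate numbers are shared by the groups. After subtracting group means, arrays with the same number correlated over 0.1 for all 3 numbers in 4 comparisons: genotype on -P at 3 h (0.160, 0.355 and 0.310) and 1 week (0.546, 0.623 and 0.600), and medium at 3 h within WT (0.671, 0.466 and 0.687) and within pnp1-1 (0.230, 0.433 and 0.422). There the pairing comes from the data, as the labels name no shared batch. Alternatives were median centring, quantile normalization within a time, a floor of 16, a filter on dim probe sets, array weights (gene-by-gene method), the compared groups alone with and without a replicate block, an averaged pair of replicates and leaving out single arrays. Leaving out 3 arrays with a raised lower quartile was chosen after seeing the data.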

Additional observations from a re-analysis of the deposited data

Results flagged for a closer look

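The genotype difference of rps14 between 1 week and 3 h differed by the interaction test on both media. It grew by 2.64 on +P and by 4.14 on -P on the log2 scale, with limma's adjusted p of 0.00723 and 1.96e-05. The arrays of the 2 times also differ in mean intensity and in spike-in level, and the part of this in the result was not tested.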

How the results depend on the processing

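Of 98 called differences of single members and 12 uncalled ones named by rule, followed through 1683 alternative values, 1374 kept their direction and side of the threshold, 291 were no longer called, 10 became called and 8 turned direction. The 8 concern 3 uncalled values: the interaction of 244990_s_at with medium at 1 week was 0.082 with array weights, 0.11 without the 3 arrays with a raised lower quartile and -0.47 to 0.13 with 1 array left out; with 1 array left out, the ndhD response in WT at 3 h was -0.59 to 0.080 and the ndhH interaction at 3 h -0.91 to 0.13.

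Counts of called members moved most with the error estimate. With the compared groups alone they were 3 at 3 h on +P, 9 at 3 h on -P and 10 at 1 week on -P for genotype, 1 (rps14) for the WT response at 1 week, and 0 (+P) and 2 (-P) for the interaction with time. Of all probe sets, those fits called 0.708%, 1.85% and 0.229% for genotype, 1.31% for the WT response, and 0.114% and 0.158% for time. With a replicate block the counts of members were 0, 7, 1 (1 week, +P) and 3 for genotype, 0 for the WT response at 1 week and 0 and 2 for time. The blocked fits called 0%, 0.637%, 0.0044% and 0.0352% of all probe sets for genotype, 0.11% for the WT response, and 0% and 0.229% for time. The block changed no other count. These fits use fewer arrays to estimate the error. Members higher and lower in all 4 conditions were then 3 and 0 without the block and 0 and 0 with it, and 3 were lower without the raised arrays. The shares above are of single comparisons, not of probe sets called in all 4 conditions. With array weights the counts were 37 at 3 h on -P and 43 at 1 week on +P for genotype, 11 and 9 for the responses of WT and pnp1-1 at 1 week, 11 for the interaction with medium at 1 week, and 4 and 9 for time. Of all probe sets, those weighted fits called 14.1%, 34.7%, 17.9%, 12.9%, 11.4%, 6.55% and 4.34%, so the shares of members for both responses (14.9% and 12.2%) and for time on +P (5.41%) lay below that of all. The WT response at 1 week had 1 call with median centring, with the dim filter and without the raised arrays. Of all probe sets, 2.84%, 5.48% and 2.18% were called there. The pnp1-1 response at 1 week had 1 with median centring, quantile normalization, the floor and the dim filter. Those fits called 0.897%, 0.919%, 0.765% and 1.41% of all probe sets. The interaction with medium at 1 week had 1 with quantile normalization (0.0923% of all), and that with time on -P had 2 with the dim filter (0.433%). The cause of these shifts was not tested.

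With 1 array left out, the counts were 16 to 23, 17 to 20, 22 to 29 and 18 to 21 in the 4 genotype comparisons, 1 to 6 and 0 to 2 for the responses of WT and pnp1-1 at 1 week, 0 to 1 for the interaction with medium at 1 week and 1 to 2 for that with time on +P. For genotype at 3 h, those fits called 3.05% to 9.55% of all probe sets on +P and 1.87% to 3.54% on -P. At 1 week on +P, leaving out a WT array gave 23 to 25 members, against 2.98% to 7.86% of all probe sets. Members higher in all 4 conditions were then 8 to 12 and lower 4 to 6. The share of all probe sets called in all 4 conditions is not given for these fits. The pnp1-1 response reached 2 without replicate 1 on -P and 1 without replicate 3 on +P, the interaction with medium 1 in both cases, and that with time 2 without pnp1-1 replicate 2 at 3 h on +P. Of the 22746 probe sets, those fits called 253 and 196 for the response, 61 and 29 for the interaction with medium, and 83 for time. Signal under 16 limits petD, ndhB, rps14 and psaC.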

Other observations

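WT replicates 2 and 3 at 1 week on +P shared 404 identical values (1 of them a member). Their log2 values differed with an SD of 0.27 over all probe sets. With the pair averaged, 10 members were higher and 6 lower in all 4 conditions. Of all probe sets, 6.85%, 3.79%, 3.63% and 1.46% were then called in the 4 conditions, each taken by itself. These are not shares called in all 4.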
